A study of Mus musculus with 20 samples.

Results

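The question asked of these data was how the BET inhibitor iBET (I-BET151) altered the transcriptional response of murine bone marrow-derived dendritic cells (BMDCs) to IgG immune complexes. All 20 of the 20 libraries entered the comparison, in 4 groups of 5 mice, A to E. The mice were wild-type C57BL/6 animals. The cells were grown from bone marrow for 8 days in GM-CSF at 40 ng/mL, and cells of each mouse were divided over the 4 groups. The DMSO Ova group received solvent and soluble ovalbumin. The DMSO IC group received solvent and ovalbumin opsonized with polyclonal rabbit antibody to ovalbumin. The iBET Ova and iBET IC groups received the same stimuli with I-BET151 at 3.3 μM. Stimulation lasted 4 hours in every group. The labels describe the inhibitor and the stimulus as given at the same time, whereas the methods place iBET before the stimulus, and the labels give 5% DMSO for the control. GM-CSF cultures of this kind hold both dendritic-like and macrophage-like cells, and each library pools the cells of its culture. In such bulk libraries, fewer cells of a type and less RNA per cell cannot be told apart.

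IgG immune complexes bind Fcγ receptors on the cell surface. Activating receptors signal through Syk and its adaptors to MAP kinases, calcium and NF-κB, and the inhibitory receptor FcγRIIB restrains this signal. In dendritic cells the receptors are known for antigen uptake, cytokine release and maturation. BET proteins, which include BRD2 and BRD3, read acetylated lysines on histones and recruit P-TEFb, which releases paused RNA polymerase II. An inhibitor such as iBET occupies their bromodomains, and genes near large acetylated enhancers are known to be the most dependent on them.

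The libraries held 16447491 to 29245150 counts (median 21764663), of which the ribosomal RNA gene Rn45s took 2.69% to 8.61%. Of 24421 genes listed, 12465 passed the filter on low counts and were tested. Dendritic cell markers summed to 7596 to 14240 CPM (TMM-normalized read counts scaled to the same total in every library) over all libraries, with Itgax at 30128 to 73641 counts, while Flt3 had only 3 to 134. B cell markers never passed 1.044 CPM. The T and NK cell list moved with the groups (126.7 to 168.7 CPM with DMSO Ova, 233.9 to 364.3 with DMSO IC, 15.28 to 30.04 with iBET Ova and 27.37 to 57.5 with iBET IC), but Il7r, which activated dendritic cells also express, held 97.7% of its counts and the defining Cd3e and Ncr1 never passed 2 counts. Macrophage markers summed to 1945 to 2533 CPM with DMSO Ova, 1917 to 2487 with DMSO IC, 1424 to 1749 with iBET Ova and 1445 to 1993 with iBET IC. A principal component that held 14.9% of the variance separated mice A and B from mice C, D and E, and the labels name no batch.

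The response to IC was the log2 fold change of IC over Ova, computed once with DMSO and again with iBET. The interaction was the second response minus the first, so a negative value means a smaller rise or a larger fall with iBET. It shares its libraries with both responses and with the effect of iBET alone. Every fit paired the libraries of a mouse. All adjusted p values are from the quasi-likelihood test of edgeR with Benjamini-Hochberg adjustment over the 12465 genes, and genes below 0.05 were called. With DMSO, 2284 genes rose with IC (18.3%) and 2471 fell (19.8%). With iBET, 1766 rose (14.2%) and 1835 fell (14.7%), and without mouse D these calls numbered 2392 in all. Scaling by library size alone moved the median response of all genes from -0.02 to -0.13 with DMSO and from -0.01 to -0.12 with iBET, and the rising share of the calls from 48% to 21.2% and from 49% to 17.5%. Both responses were called in the same direction in 2718 genes and in opposite directions in 11. A further 2026 genes were called with DMSO alone and 872 with iBET alone, but of these only 33 and 17 were also called for the interaction, so for most the difference between the responses did not pass its own test.

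The interaction was called in 102 of the 12465 genes (0.818%), of which 50 were higher (0.401%) and 52 lower (0.417%) with iBET, while 1395 had an unadjusted p under 0.05. Of the 102, 101 had the same direction in 5 of 5 mice (Amz1 in 4), and all 102 kept their direction in every other fit that measured them. The test that chose these genes pairs the same mice, and the other fits reuse the same libraries. This agreement in direction was therefore largely set by the choice and is no independent check. The number called depended on the pairing of the mice. Without the mouse as replicate block it fell to 5 genes (3 higher and 2 lower), all among the 102, and the block moved the other counts too, with 2531 genes called without it for the response with DMSO and 1474 with iBET. Leaving out mouse A, B, C, D or E gave 55, 37, 15, 14 and 61 calls. Mice A and B alone gave 0 calls, with 1845 genes at an unadjusted p under 0.05, and mice C, D and E alone gave 65. Only 9 genes had an interaction of 2-fold or more, 4 of them (Wnk2, Bcl11a, Map2k6 and 1700096K18Rik, singled out after their values were seen) with a mean under 100 counts.

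By shape, 64 of the 102 were blunted, meaning that the response was called with DMSO and was smaller with iBET (36 rising and 28 falling with IC). In 28 the response was called with iBET and was larger there (15 rising and 13 falling), which is described as enlarged. The remaining 10 were called in both settings with opposite signs. The median response of the blunted rising genes was 0.74 with DMSO and 0.26 with iBET, and of the blunted falling genes -0.67 and -0.05. The enlarged rising genes had medians of 0.09 and 0.72, and the enlarged falling genes 0.04 and -0.63. These medians describe genes picked by the same contrast and test nothing further. A log2 interaction compares ratios. On the CPM scale 96 of the 102 had the same sign and 6 the opposite one, namely Abhd15, Tnip3, Sipa1l2, Eps8, Zeb2 and Magi3, whose level with Ova iBET alone had moved by between -2.93 (Tnip3) and 2.62 (Abhd15) on the log2 scale. Zeb2, a zinc finger repressor of the dendritic and monocyte lineages, gained 119 CPM with DMSO and 83.9 CPM with iBET while its log2 response grew from 0.44 to 0.85.

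**Figure D1:**
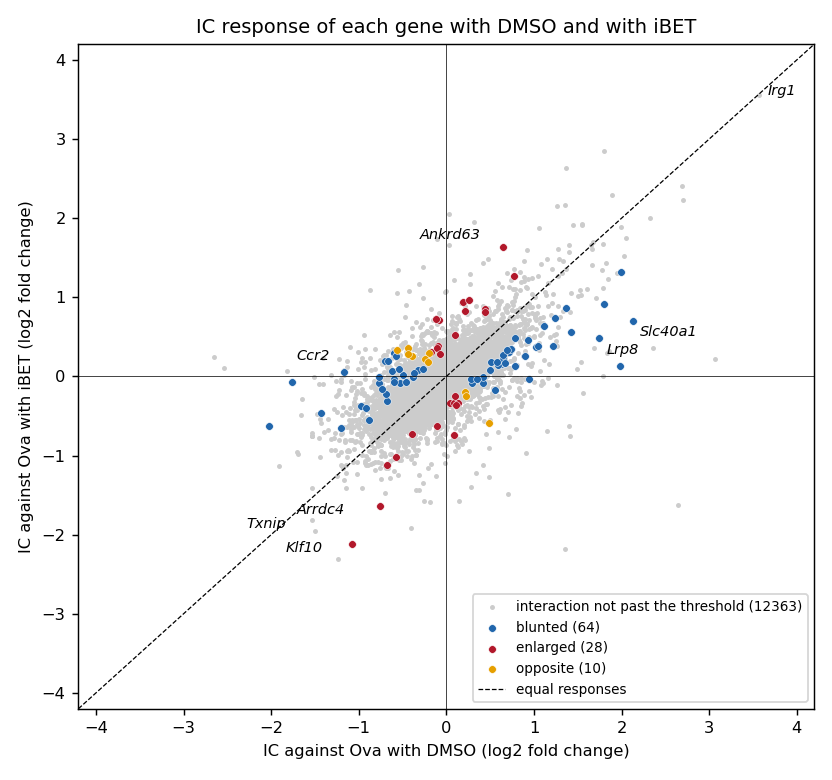
Log2 response to IC with iBET (vertical axis) against the response with DMSO (horizontal axis) for the 12465 genes tested, each point a gene, with genes called for the interaction coloured by class. Most genes lie near the origin, and the dashed diagonal marks equal responses. Slc40a1 and Lrp8 lie far below this diagonal on the right, and Ankrd63 lies above it on the right. Ccr2 lies above the diagonal on the left, and Klf10 and Arrdc4 lie below it on the left.

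Responses to IC were next compared in size between the settings. To favour neither setting, genes were taken by the mean of both responses, which was called as rising in 2865 genes (23%) and as falling in 3144 (25.2%), 6009 in all and 3986 without the replicate block. With library-size scaling alone 1390 rose and 5360 fell, so the split between rising and falling genes depends on the scaling. A gene was described as kept when the 95% interval of its interaction lay within 1.5-fold of no change (0.585 on the log2 scale in either direction). This held for 4954 of the 6009, 2533 rising and 2421 falling, and 19 of these were called for the interaction with a small value. Without the replicate block the kept genes numbered 2968. The mean response of 5327 of the 6009 was itself smaller than this margin, and 4732 of the kept genes were among these, where a response could be lost and still count as kept. Of the 682 genes with a mean response at or above the margin, 222 were kept (32.6%), 27 were called for the interaction and not kept, and 433 were neither. Among the 128 genes whose mean response was 2-fold or more, 11 were called, 23 were kept and 94 were neither. In genes that were neither, the interval reached past the margin, through its width or through the size of the interaction. The median distance from the interaction to either end of this interval was 0.44 for the 79 rising and 0.89 for the 49 falling. For those averaging at least 100 counts it was 0.38 (60 rising) and 0.22 (7 falling), against 0.24 over all genes. Many of the wide intervals, above all among falling genes, thus belonged to genes with few counts. The median response of the rising genes was 0.25 with DMSO and 0.21 with iBET, and their median interaction was -0.04, with 1031 genes above 0 and 1834 below. The falling genes had medians of -0.31 and -0.27 and an interaction of 0.04, with 1894 above 0 and 1250 below.

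This small overall shift was not shared by the mice. For the rising genes the median interaction was 0.04 in mouse A, 0.03 in B, -0.09 in C, -0.04 in D and -0.14 in E. For the falling genes it was -0.02 in A, -0.01 in B, 0.10 in C, 0.05 in D and 0.06 in E. In mice A and B the response was therefore as large with iBET as with DMSO or slightly larger, and in C, D and E it was smaller. A fit of mice A and B only gave 0.04 for the rising genes and a fit of C, D and E only gave -0.12. The choice of genes also set the balance. Of the 2284 genes that rose with DMSO, 500 had an interaction above 0 and 1784 below, a choice that favours blunting since it uses the DMSO response, whereas of the 1766 that rose with iBET 893 were above and 873 below.

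**Figure D2:**
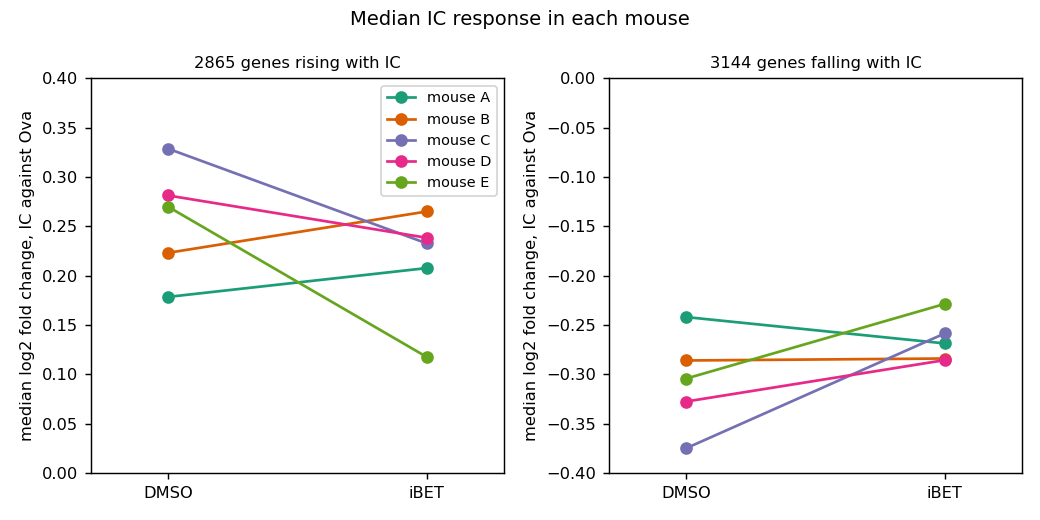
Median log2 response to IC in each mouse, with DMSO and with iBET, of the 2865 rising and the 3144 falling genes chosen on the mean of both responses. The rising genes have medians of 0.18 with DMSO and 0.21 with iBET in mouse A but 0.27 and 0.12 in mouse E.

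The rise with IC was most reduced for Slc40a1, Lrp8, Plk2, Rps6ka2, Ahr and Acsl1. These 6 had the largest interactions among blunted rising genes averaging 100 counts or more, and values are CPM in mice A to E in that order. Positions are gene spans of GENCODE M21 on GRCm38. Slc40a1, the iron exporter ferroportin (chr1:45908068-45926523, minus strand), had 4.61, 6.7, 6.17, 8.3 and 7.18 CPM with DMSO Ova, 23, 19.2, 38.6, 35 and 28.9 CPM with DMSO IC, 3.92, 6.13, 4.84, 5.81 and 4.65 CPM with iBET Ova and 7.29, 6.4, 9.99, 9.59 and 8.18 CPM with iBET IC. Every DMSO IC library lay far above every other library, and the iBET IC libraries lay only just above the iBET Ova libraries. The response of Slc40a1 was 2.13 with DMSO and 0.70 with iBET, an interaction of -1.42 (SE 0.20, adjusted p = 0.00111). Lrp8, a receptor for apolipoprotein E and reelin (chr4:107802261-107876840, plus strand), had 8.72, 5.63, 6.5, 5.11 and 5.33 CPM with DMSO Ova, 23.5, 17.2, 26.6, 18 and 20.1 CPM with DMSO IC, 14.4, 14.9, 12.9, 10.7 and 11.5 CPM with iBET Ova and 16.9, 17.6, 22.9, 15 and 17.9 CPM with iBET IC. Here iBET alone had already lifted the Ova libraries above all DMSO Ova libraries (log2 1.04), and the IC groups overlapped. The response of Lrp8 was 1.74 with DMSO and 0.48 with iBET, an interaction of -1.26 (SE 0.15, adjusted p = 0.000399).

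Plk2, a stress-inducible polo-like kinase (chr13:110395046-110400844, plus strand), had 65.1, 37.4, 79.2, 54.5 and 79.4 CPM with DMSO Ova, 101, 90.7, 154, 109 and 147 CPM with DMSO IC, 91.1, 79.7, 110.4, 74.6 and 109.6 CPM with iBET Ova and 79.6, 79.2, 115, 80.2 and 98.2 CPM with iBET IC. IC raised every mouse with DMSO, and with iBET the Ova and IC libraries overlapped throughout. The response of Plk2 was 0.94 with DMSO and -0.04 with iBET, an interaction of -0.98 (SE 0.12, adjusted p = 0.000442). Rps6ka2, a ribosomal S6 kinase downstream of ERK (chr17:7170115-7303315, plus strand), had 47.4, 34.1, 40.4, 37.3 and 36.9 CPM with DMSO Ova, 152, 119, 149, 124 and 142 CPM with DMSO IC, 60.3, 58.5, 65.6, 67 and 64.4 CPM with iBET Ova and 109.6, 105, 140.4, 113 and 127 CPM with iBET IC. Ova and IC libraries were separate in both settings, and the iBET Ova libraries started from a higher level (log2 0.69). The response of Rps6ka2 was 1.80 with DMSO and 0.91 with iBET, an interaction of -0.89 (SE 0.10, adjusted p = 0.000207). Ahr, the aryl hydrocarbon receptor, a ligand-activated transcription factor (chr12:35497974-35535038, minus strand), had 29.3, 14.2, 38, 17.9 and 29.3 CPM with DMSO Ova, 59, 54.7, 107, 54.4 and 69.2 CPM with DMSO IC, 40, 40.8, 50.5, 40.1 and 39.8 CPM with iBET Ova and 45.6, 51.6, 87.6, 63.3 and 70.7 CPM with iBET IC. The IC groups overlapped with each other, and the Ova libraries were all higher with iBET. The response of Ahr was 1.42 with DMSO and 0.56 with iBET, an interaction of -0.86 (SE 0.20, adjusted p = 0.0451). Acsl1, which couples long-chain fatty acids to coenzyme A (chr8:46471037-46536051, plus strand), had 93, 57.1, 63.9, 57.2 and 59.6 CPM with DMSO Ova, 199.6, 160.5, 152, 129 and 126 CPM with DMSO IC, 100.5, 90.8, 88.4, 86.6 and 89.3 CPM with iBET Ova and 134, 121, 123, 112 and 106 CPM with iBET IC. The groups with iBET were close together but still separate. The response of Acsl1 was 1.22 with DMSO and 0.39 with iBET, an interaction of -0.83 (SE 0.10, adjusted p = 0.000442). With each mouse left out in turn Slc40a1, Lrp8, Plk2, Rps6ka2 and Acsl1 were called in all 5 fits, whereas Ahr was called in none of them (interaction -0.97 to -0.71, adjusted p up to 0.176).

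**Figure D3:**
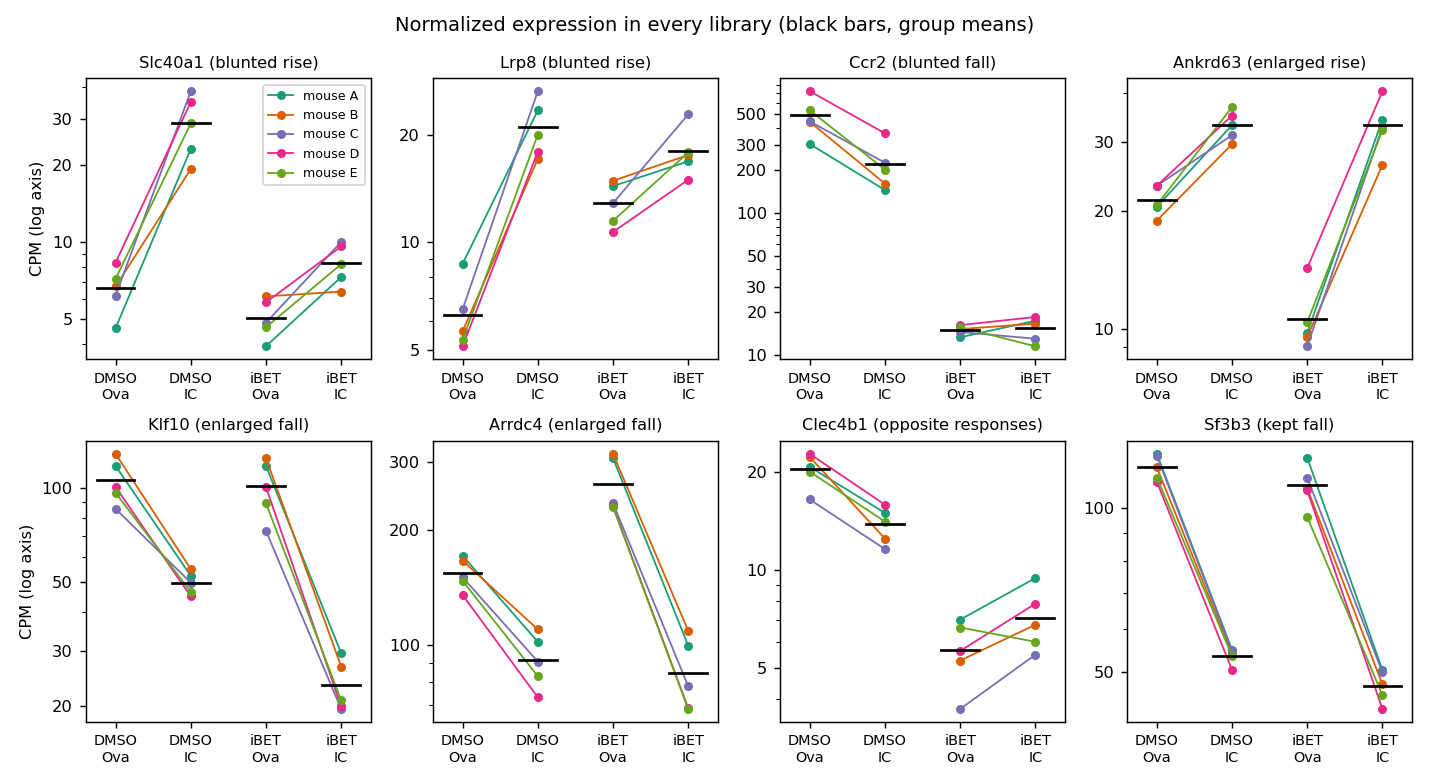
CPM (log axis) of 8 genes in every library, with the 5 mice of each group as points, lines joining the Ova and IC libraries of a mouse and black bars at the group means. The lines of Slc40a1 rise steeply with DMSO and little with iBET, those of Ccr2 fall with DMSO from a level far above that with iBET, and those of Klf10 fall further with iBET than with DMSO.

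Genes that fell with IC in DMSO, and less or not at all with iBET, included the surface receptors Ccr2, Slamf9 and Sirpb1a. Of the 6 with the largest interactions above 100 counts, 5 were lower with iBET alone. Ccr2, the receptor for Ccl2 that brings monocytes out of the bone marrow (chr9:124101950-124113557, plus strand), had 306, 439, 442, 721 and 529 CPM with DMSO Ova, 145, 161, 226, 364 and 202 CPM with DMSO IC, 13.3, 15.2, 14.5, 16.2 and 15.7 CPM with iBET Ova and 17.4, 16.6, 13, 18.5 and 11.5 CPM with iBET IC. All iBET libraries were far below all DMSO libraries (log2 -4.98 for iBET alone with Ova), and the paired DMSO values fell with IC in 5 of 5 mice although the DMSO groups overlapped. The response of Ccr2 was -1.17 with DMSO and 0.05 with iBET, an interaction of 1.22 (SE 0.23, adjusted p = 0.0144). Abhd15, an α/β-hydrolase domain protein (chr11:77515121-77538607, plus strand), had 8.95, 8.36, 7.3, 7.21 and 6.62 CPM with DMSO Ova, 2.65, 3.13, 2.1, 2.79 and 3.37 CPM with DMSO IC, 56.6, 46.6, 43.6, 44.6 and 44.3 CPM with iBET Ova and 38.7, 38.6, 32.4, 32 and 29.8 CPM with iBET IC. It was the exception, since iBET alone raised it (log2 2.62), and it lost -12.8 CPM with IC in iBET against -4.88 CPM in DMSO although the ratio was smaller. The response of Abhd15 was -1.43 with DMSO and -0.46 with iBET, an interaction of 0.97 (SE 0.12, adjusted p = 0.000442). Slamf9, a SLAM-family receptor of myeloid cells (chr1:172475358-172478575, plus strand), had 16.9, 19.4, 19.3, 31.9 and 25.8 CPM with DMSO Ova, 11, 9.89, 12.4, 20.1 and 16.4 CPM with DMSO IC, 7.63, 5.8, 6.59, 12.8 and 9.08 CPM with iBET Ova and 9.44, 6.78, 8.38, 13.8 and 9.23 CPM with iBET IC. The Ova and IC groups overlapped in both settings, and the paired values fell with DMSO. The response of Slamf9 was -0.70 with DMSO and 0.20 with iBET, an interaction of 0.90 (SE 0.12, adjusted p = 0.000958).

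Tnfsf14, the TNF-superfamily ligand LIGHT (chr17:57189492-57194177, minus strand), had 10.2, 9.07, 8.71, 7.49 and 7.18 CPM with DMSO Ova, 5.94, 5.95, 5.83, 5.04 and 5.12 CPM with DMSO IC, 2.95, 1.41, 1.75, 1.58 and 1.38 CPM with iBET Ova and 2.29, 2.31, 2.74, 2.1 and 1.84 CPM with iBET IC. The DMSO groups were separate and the iBET groups, at a few CPM or less, overlapped. The response of Tnfsf14 was -0.60 with DMSO and 0.30 with iBET, an interaction of 0.90 (SE 0.18, adjusted p = 0.0217). Sirpb1a, a signal regulatory protein of the β type (chr3:15371653-15426520, minus strand), had 81.2, 79.6, 36.8, 43.2 and 34.6 CPM with DMSO Ova, 52.4, 48.5, 25.7, 28.8 and 25.9 CPM with DMSO IC, 40.8, 29.9, 14.4, 17.7 and 10.7 CPM with iBET Ova and 54.6, 39.3, 14.5, 19.6 and 11.7 CPM with iBET IC. The mice differed widely in level and the groups overlapped. The response of Sirpb1a was -0.57 with DMSO and 0.25 with iBET, an interaction of 0.82 (SE 0.17, adjusted p = 0.0234). Asb4, an ankyrin repeat and SOCS box protein (chr6:5383386-5433022, plus strand), had 11.8, 15.6, 10.6, 15.1 and 12.9 CPM with DMSO Ova, 7.26, 9.67, 6.67, 7.79 and 7.19 CPM with DMSO IC, 2.38, 2.82, 2.1, 2.88 and 1.97 CPM with iBET Ova and 1.78, 2.8, 2.59, 2.62 and 2.39 CPM with iBET IC. With iBET, Ova and IC libraries overlapped. The response of Asb4 was -0.77 with DMSO and -0.01 with iBET, an interaction of 0.76 (SE 0.14, adjusted p = 0.0144). Abhd15 and Slamf9 were called with any mouse left out. Ccr2 was lost without mouse B, C or D (interaction 1.12 to 1.31, adjusted p up to 0.0815), Tnfsf14 without B, C, D or E (0.81 to 1.10, up to 0.17), Sirpb1a without B, C or D (0.73 to 0.88, up to 0.158) and Asb4 without B, C, D or E (0.68 to 0.88, up to 0.123).

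The 10 genes that responded in opposite directions were Clec4b1, Hfe, Sirpb1b, LOC100038947, Blnk, Clec4a2, Rin2, Fam217b, Ranbp6 and 1700096K18Rik, and the first 4 had the largest interactions above 100 counts. Clec4b1, a C-type lectin receptor of myeloid cells (chr6:123049962-123071555, plus strand), had 20.8, 22.3, 16.5, 22.8 and 20.1 CPM with DMSO Ova, 15, 12.5, 11.6, 15.9 and 14.1 CPM with DMSO IC, 7.03, 5.26, 3.73, 5.63 and 6.65 CPM with iBET Ova and 9.44, 6.78, 5.48, 7.87 and 6.01 CPM with iBET IC. The DMSO groups were separate, with IC lower, and the iBET groups overlapped at a lower level, with IC slightly higher in 4 of 5 mice. The response of Clec4b1 was -0.57 with DMSO and 0.33 with iBET, an interaction of 0.90 (SE 0.14, adjusted p = 0.00487). Hfe, the haemochromatosis protein that binds the transferrin receptor (chr13:23702034-23710854, minus strand), had 21.1, 32.5, 19.3, 27.2 and 21 CPM with DMSO Ova, 20.1, 17, 15.1, 20 and 16.2 CPM with DMSO IC, 12.2, 13, 9.45, 13 and 10.4 CPM with iBET Ova and 19.5, 15.5, 12.4, 14.6 and 12.2 CPM with iBET IC. Ova and IC groups overlapped in both settings. The response of Hfe was -0.44 with DMSO and 0.36 with iBET, an interaction of 0.80 (SE 0.14, adjusted p = 0.0124), and mouse B lay apart from the others with an interaction of 1.19 against 0.61 to 0.74. Hfe was lost without mouse C or D (0.69 to 0.85, adjusted p up to 0.0966) and Clec4b1 without D (0.81 to 1.03, up to 0.0604).

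Sirpb1b (chr3:15495751-15575065, minus strand), a close relative of Sirpb1a, had 135, 128, 66.8, 67.1 and 62.9 CPM with DMSO Ova, 103, 96.9, 47.9, 54.8 and 46.9 CPM with DMSO IC, 78.2, 58.1, 35.4, 38.6 and 26.4 CPM with iBET Ova and 95.7, 81.3, 35.1, 48.4 and 29.2 CPM with iBET IC. As with Sirpb1a, differences between mice were larger than those between groups. The response of Sirpb1b was -0.40 with DMSO and 0.26 with iBET, an interaction of 0.66 (SE 0.12, adjusted p = 0.0106). LOC100038947, a locus of the same family, had 234, 231, 109, 124 and 112 CPM with DMSO Ova, 180, 159, 80.5, 98.7 and 79.3 CPM with DMSO IC, 138, 101, 53.7, 64.3 and 42.8 CPM with iBET Ova and 176, 136, 57, 80 and 49.3 CPM with iBET IC. The groups overlapped in the same way. The response of LOC100038947 was -0.44 with DMSO and 0.28 with iBET, an interaction of 0.72 (SE 0.12, adjusted p = 0.00721). These near-identical family members can share reads, and how reads that fit several genes were counted is not named in the sources used here, so Sirpb1a, Sirpb1b and LOC100038947 are uncertain as separate results. Sirpb1b was lost without mouse B, C or D (0.59 to 0.69, adjusted p up to 0.0807) and LOC100038947 without B or D (0.65 to 0.77, up to 0.0604).

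Several genes rose with IC more strongly, or only, when iBET was present. Of the 15 enlarged rising genes, 14 were called as lower with iBET alone under Ova, against 4385 of all 12465 tested genes. That comparison shares libraries with the interaction. Ankrd63, an ankyrin repeat protein (chr2:118699103-118703963, minus strand), had 20.5, 18.9, 23.2, 23.2 and 20.7 CPM with DMSO Ova, 33.1, 29.6, 31.2, 35 and 36.8 CPM with DMSO IC, 9.78, 9.54, 9.04, 14.3 and 10.4 CPM with iBET Ova and 34.2, 26.2, 32.7, 40.4 and 32.1 CPM with iBET IC. iBET lowered every Ova library, and with IC the iBET libraries came back to the range of the DMSO IC libraries. The response of Ankrd63 was 0.64 with DMSO and 1.64 with iBET, an interaction of 1.00 (SE 0.11, adjusted p = 0.000168). Ankrd33b, another ankyrin repeat protein (chr15:31291478-31367726, minus strand), had 19.2, 22.1, 52.4, 42.9 and 43 CPM with DMSO Ova, 25.8, 31.9, 52.3, 43.2 and 46.6 CPM with DMSO IC, 19.3, 23, 29.8, 28.6 and 31.5 CPM with iBET Ova and 33.3, 45.8, 65.7, 50.4 and 62 CPM with iBET IC. With DMSO the groups overlapped, and with iBET they were separate. The response of Ankrd33b was 0.19 with DMSO and 0.94 with iBET, an interaction of 0.76 (SE 0.14, adjusted p = 0.0124). Tnip3, an A20-binding inhibitor of NF-κB also called ABIN-3 (chr6:65525313-65634040, plus strand), had 44.7, 35, 80, 77.3 and 80.5 CPM with DMSO Ova, 57.2, 55.6, 85.6, 89.9 and 80.7 CPM with DMSO IC, 6.34, 4.34, 10.9, 9.5 and 10.1 CPM with iBET Ova and 12.6, 10.1, 19.5, 20.5 and 17.3 CPM with iBET IC. All iBET libraries lay below all DMSO libraries (log2 -2.93 with Ova), and the gain in CPM with IC was 7.74 with iBET and 10.3 with DMSO, so the larger response was one of ratio. The response of Tnip3 was 0.26 with DMSO and 0.97 with iBET, an interaction of 0.70 (SE 0.12, adjusted p = 0.0087).

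Ear2, Ear3 and Ear12, eosinophil-associated ribonucleases with antimicrobial activity, formed the rest of the 6. Ear2 (chr14:44102654-44103534, plus strand) had 31.3, 50.4, 40.4, 88.1 and 52.7 CPM with DMSO Ova, 32.4, 31.1, 51.2, 76.7 and 57.2 CPM with DMSO IC, 20.1, 16.9, 21.3, 45.8 and 28.6 CPM with iBET Ova and 34.5, 25.6, 41.3, 71.5 and 42.6 CPM with iBET IC. The spread between mice was wide and all groups overlapped, while the paired values rose with iBET. The response of Ear2 was -0.08 with DMSO and 0.71 with iBET, an interaction of 0.79 (SE 0.17, adjusted p = 0.0343). Ear3 and Ear12 held identical counts in all libraries and amount to a single result, with 28.3, 45.9, 36.5, 80.4 and 47.7 CPM with DMSO Ova, 28.9, 27.7, 44.5, 67.3 and 51.4 CPM with DMSO IC, 17.7, 14.6, 19.3, 40.4 and 25.5 CPM with iBET Ova and 31.2, 22.4, 36.6, 62.8 and 38.9 CPM with iBET IC. Its pattern over the groups was that of Ear2, a near-identical relative, so the 3 genes are uncertain as separate results. The response of Ear3 was -0.12 with DMSO and 0.72 with iBET, an interaction of 0.84 (SE 0.17, adjusted p = 0.0252). Ankrd63 was called with any mouse left out, Tnip3 was lost without C or D (0.65 to 0.75, adjusted p up to 0.109), Ankrd33b without C, D or E (0.65 to 0.85, up to 0.095) and Ear2 and Ear3 without A, C, D or E (Ear2 0.65 to 0.88, up to 0.211, and Ear3 0.70 to 0.92, up to 0.176).

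The falls that iBET enlarged were headed by Klf10 and Arrdc4, which had the smallest adjusted p values of all genes named here. Klf10, a zinc finger transcription factor induced by TGF-β (chr15:38291463-38300706, minus strand), had 118, 129, 85.9, 101 and 96.7 CPM with DMSO Ova, 52.3, 55, 49.7, 44.9 and 46.4 CPM with DMSO IC, 118, 125, 73, 101 and 89.6 CPM with iBET Ova and 29.5, 26.7, 19.5, 19.9 and 20.8 CPM with iBET IC. The Ova groups overlapped (log2 -0.07 for iBET alone), and every iBET IC library was below every DMSO IC library. The response of Klf10 was -1.08 with DMSO and -2.12 with iBET, an interaction of -1.04 (SE 0.11, adjusted p = 8.73e-05). Arrdc4, an α-arrestin that restrains glucose uptake (chr7:68736995-68749241, minus strand), had 171, 166, 150.2, 135 and 147 CPM with DMSO Ova, 102, 109.9, 90.6, 73.1 and 83 CPM with DMSO IC, 307, 315, 234, 229.9 and 229 CPM with iBET Ova and 99.7, 109, 78.2, 68.5 and 68.2 CPM with iBET IC. iBET alone raised it (log2 0.76) and IC brought it down to overlapping levels with DMSO and with iBET. The response of Arrdc4 was -0.76 with DMSO and -1.64 with iBET, an interaction of -0.88 (SE 0.08, adjusted p = 3.36e-05). Its relative Txnip, the thioredoxin-interacting protein (chr3:96557957-96561883, plus strand), had 1152, 1233, 1014, 1051 and 1184 CPM with DMSO Ova, 393, 468, 346, 359 and 383 CPM with DMSO IC, 2919, 3169, 2757, 2721 and 3032 CPM with iBET Ova and 917, 1079, 679.8, 761 and 747 CPM with iBET IC. It fell steeply in both settings from a higher level with iBET, and its interaction was within the kept range. The response of Txnip was -1.54 with DMSO and -1.82 with iBET, an interaction of -0.28 (SE 0.09, adjusted p = 0.16).

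Arrdc4 and Txnip are both known targets of the glucose-sensing factors MondoA and ChREBP, which bind paired E-box-like elements. Their promoters are shown because the fall of both genes with IC was among the steepest while the interaction was called only for Arrdc4, and this pair was chosen after the values were seen. The sequences are RefSeq promoters on GRCm38.p6, from 250 bases before to 50 after the start, read in the direction of transcription. Arrdc4 lies on the minus strand (chr7:68749189-68749488) and Txnip on the plus strand (chr3:96557707-96558006). Capitals mark matches to CACGNG on either strand, which include the E-box CACGTG.
Arrdc4: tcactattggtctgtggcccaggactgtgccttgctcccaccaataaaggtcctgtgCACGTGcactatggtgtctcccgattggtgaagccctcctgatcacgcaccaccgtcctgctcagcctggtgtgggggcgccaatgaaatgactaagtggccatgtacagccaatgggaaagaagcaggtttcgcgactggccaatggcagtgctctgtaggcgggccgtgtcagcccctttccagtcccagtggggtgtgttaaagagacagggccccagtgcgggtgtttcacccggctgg
Txnip: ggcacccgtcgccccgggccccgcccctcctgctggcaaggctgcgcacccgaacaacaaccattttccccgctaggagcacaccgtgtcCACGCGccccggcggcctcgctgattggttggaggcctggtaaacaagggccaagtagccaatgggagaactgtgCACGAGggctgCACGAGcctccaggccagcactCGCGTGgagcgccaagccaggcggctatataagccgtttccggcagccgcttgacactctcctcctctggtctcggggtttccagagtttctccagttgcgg
The Arrdc4 promoter held 1 match, a full CACGTG, 193 bases before the start. The Txnip promoter held 4 matches, at 160, 85, 74 and 52 bases before the start, and no CACGTG. Of 32851 promoters of the same length, 7.2% held CACGTG and 27.5% held CACGNG. The difference between the interactions of Arrdc4 and Txnip was not tested. A match describes the letters in this window and does not show binding.

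The other 4 enlarged falls named by class had smaller interactions, and their responses with DMSO lay between -0.11 and 0.13. Sfn, the adaptor protein 14-3-3σ (chr4:133600556-133602168, minus strand), had 4.76, 4.86, 3.53, 4.55 and 3.95 CPM with DMSO Ova, 5.51, 4.4, 3.87, 4.7 and 4.55 CPM with DMSO IC, 9.33, 8.02, 8.34, 6.44 and 7.49 CPM with iBET Ova and 5.33, 5.61, 3.83, 3.67 and 5.17 CPM with iBET IC. The iBET Ova libraries were the highest group and the others overlapped. The response of Sfn was 0.09 with DMSO and -0.75 with iBET, an interaction of -0.83 (SE 0.16, adjusted p = 0.0144). Paxbp1, a PAX-binding nuclear protein (chr16:91014037-91044543, minus strand), had 21.9, 32.3, 34.1, 25.7 and 30.6 CPM with DMSO Ova, 21, 30.8, 28.8, 27.2 and 25.9 CPM with DMSO IC, 31.9, 57.3, 39.6, 37.1 and 44.5 CPM with iBET Ova and 22.1, 32, 27.5, 20.6 and 33.2 CPM with iBET IC. The iBET Ova libraries were all above the DMSO IC libraries, and the other pairs of groups overlapped. The response of Paxbp1 was -0.11 with DMSO and -0.63 with iBET, an interaction of -0.53 (SE 0.12, adjusted p = 0.0451). Tfec, a transcription factor of the MiT family that macrophages express (chr6:16833373-16898441, minus strand), had 119.7, 76.1, 65.9, 62.2 and 84.2 CPM with DMSO Ova, 107, 92.2, 80.6, 71.1 and 82.2 CPM with DMSO IC, 35.4, 26.8, 25.3, 18.6 and 25.4 CPM with iBET Ova and 24.8, 20.8, 21, 15.9 and 19.2 CPM with iBET IC. All iBET libraries were below all DMSO libraries and Ova and IC overlapped within each. The response of Tfec was 0.11 with DMSO and -0.36 with iBET, an interaction of -0.47 (SE 0.10, adjusted p = 0.0333). Slc43a3, a nucleobase transporter (chr2:84936579-84958509, plus strand), had 29.9, 31.1, 24.8, 21.5 and 21.5 CPM with DMSO Ova, 28.6, 35.6, 26.3, 22.8 and 27 CPM with DMSO IC, 27.6, 25.6, 25.2, 19.9 and 22.1 CPM with iBET Ova and 21.2, 23.8, 19.4, 15.9 and 15.9 CPM with iBET IC. Its groups overlapped throughout. The response of Slc43a3 was 0.13 with DMSO and -0.33 with iBET, an interaction of -0.46 (SE 0.09, adjusted p = 0.0188). Klf10 and Arrdc4 were called with any mouse left out, Sfn was lost without A, C, D or E (-0.96 to -0.74, adjusted p up to 0.0995), Paxbp1 without A, B, C or D (-0.61 to -0.43, up to 0.28), Tfec without B, C, D or E (-0.49 to -0.43, up to 0.178) and Slc43a3 without C, D or E (-0.51 to -0.38, up to 0.14).

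**Figure D4:**
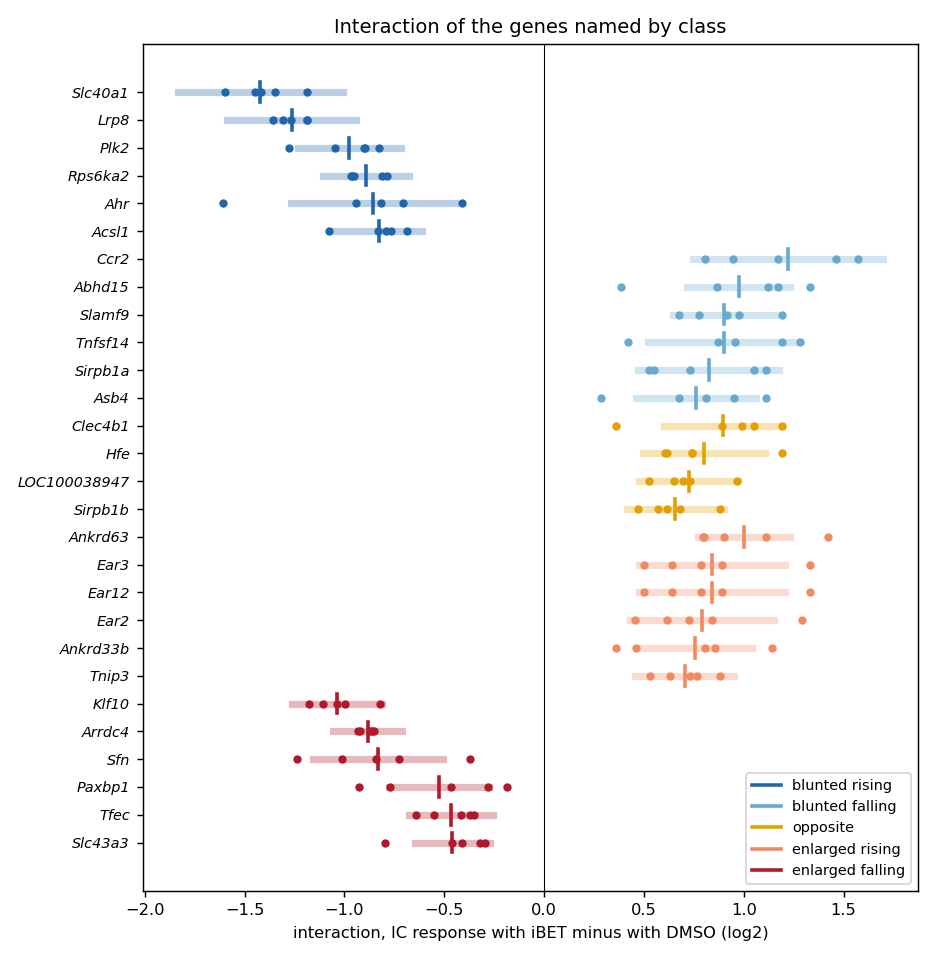
Interaction (log2, response to IC with iBET minus with DMSO) of the 28 genes named by class, with points for the 5 mice, a tick for the fitted value and a band for its 95% interval. Every point of a gene lies on the same side of 0, which the choice of these genes required. Arrdc4 has the narrowest spread and Ahr the widest among the blunted rising genes.

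At the other end were genes whose strong response was kept. The 6 with the largest mean rise were Bhlhe41, Ppap2b, Rgl1, Il1a, Ccl3 and Lrrc32. Bhlhe41, a transcriptional repressor of the clock family, had 51.3, 33.9, 21.5, 18.8 and 22.5 CPM with DMSO Ova, 148, 125, 102, 89.3 and 97.6 CPM with DMSO IC, 8, 8.78, 4.9, 5.4 and 7.2 CPM with iBET Ova and 38.3, 27.8, 20.9, 21.9 and 19.3 CPM with iBET IC. Ova and IC libraries were separate in both settings, and iBET lowered it under each stimulus (log2 -2.05 with Ova). The response of Bhlhe41 was 1.99 with DMSO and 1.89 with iBET (interval of the interaction -0.44 to 0.24). In CPM, however, the gain was 82.8 with DMSO and 18.8 with iBET. Ppap2b (Plpp3), a lipid phosphate phosphatase, had 22, 14.8, 11.1, 8.19 and 11.7 CPM with DMSO Ova, 57, 51.1, 37.7, 30.5 and 35.4 CPM with DMSO IC, 9.69, 9.49, 5.25, 5.49 and 6.78 CPM with iBET Ova and 33.1, 29, 21.7, 18.6 and 17.1 CPM with iBET IC. IC raised it clear of Ova in both settings. The response of Ppap2b was 1.67 with DMSO and 1.70 with iBET (interval -0.24 to 0.30). Rgl1, an exchange factor for Ral GTPases, had 36, 23.2, 33.4, 22.8 and 35 CPM with DMSO Ova, 116, 93.7, 123, 85.4 and 110.4 CPM with DMSO IC, 30.1, 27.3, 33.3, 23.5 and 31.3 CPM with iBET Ova and 83.7, 72.2, 89.1, 70.8 and 75.1 CPM with iBET IC. The iBET and DMSO groups overlapped under each stimulus. The response of Rgl1 was 1.82 with DMSO and 1.43 with iBET, with the interaction just short of the threshold (adjusted p = 0.0672, interval -0.58 to -0.19).

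Il1a, the alarmin cytokine interleukin-1α, had 29.6, 24.7, 20.2, 18.3 and 20.7 CPM with DMSO Ova, 72.4, 78.8, 64, 42 and 48.6 CPM with DMSO IC, 10.5, 13.1, 12, 5.27 and 9.62 CPM with iBET Ova and 35.4, 37.3, 36.2, 23.5 and 25.4 CPM with iBET IC. It rose in every mouse in both settings, and the iBET libraries were below the DMSO libraries of the same stimulus. The response of Il1a was 1.40 with DMSO and 1.66 with iBET (interval -0.05 to 0.56). Ccl3, a chemokine for monocytes and T cells, had 52.6, 22.4, 24, 14.5 and 21.4 CPM with DMSO Ova, 82.3, 64.8, 91.3, 40.8 and 62.5 CPM with DMSO IC, 12.2, 8.73, 8.98, 4.05 and 6.57 CPM with iBET Ova and 29.3, 24.5, 27.6, 14.9 and 21.6 CPM with iBET IC. All iBET libraries were below all DMSO libraries of the same stimulus. The response of Ccl3 was 1.40 with DMSO and 1.58 with iBET (interval -0.23 to 0.58). Lrrc32, known as GARP, which tethers latent TGF-β, had 5.89, 5.04, 9.47, 6.44 and 6.98 CPM with DMSO Ova, 12.7, 11.2, 19, 19.3 and 24.2 CPM with DMSO IC, 1.09, 1.14, 1.28, 1.49 and 2.22 CPM with iBET Ova and 3, 2.95, 4.55, 4.1 and 5.45 CPM with iBET IC. Its level with iBET and IC did not reach that of any DMSO IC library, yet the ratios of IC to Ova were close. The response of Lrrc32 was 1.33 with DMSO and 1.46 with iBET (interval -0.26 to 0.52). Kept in this sense therefore refers to the ratio of IC to Ova and not to the level reached.

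The 4 kept genes with the largest fall were Txnip, described above, Sf3b3, Gm1966 and Klf11. Sf3b3, a subunit of the splicing factor SF3b, had 126, 119, 125, 112 and 114 CPM with DMSO Ova, 55, 54.1, 54.7, 50.5 and 53.6 CPM with DMSO IC, 124, 109, 114, 108 and 96.5 CPM with iBET Ova and 50.5, 47.5, 50, 42.8 and 45.4 CPM with iBET IC. iBET and DMSO libraries overlapped under each stimulus and IC lowered all of them. The response of Sf3b3 was -1.15 with DMSO and -1.22 with iBET (interval -0.21 to 0.06). Gm1966, annotated as an unprocessed pseudogene, had 158, 228, 172, 195 and 201 CPM with DMSO Ova, 81.8, 99.9, 70.9, 88.7 and 77.9 CPM with DMSO IC, 30.8, 40.4, 32.9, 36.4 and 32.1 CPM with iBET Ova and 16.8, 14.6, 14.2, 15.1 and 16.6 CPM with iBET IC. It fell by similar ratios from very different levels. The response of Gm1966 was -1.18 with DMSO and -1.15 with iBET (interval -0.20 to 0.27). Klf11, a relative of Klf10, had 11.8, 12.6, 10.6, 10.8 and 11 CPM with DMSO Ova, 5.57, 5.13, 5.74, 5.29 and 4.59 CPM with DMSO IC, 13.3, 14, 11.1, 14.1 and 14.4 CPM with iBET Ova and 6.66, 6.93, 7.09, 7.44 and 6.78 CPM with iBET IC. It fell in both settings and was kept. The response of Klf11 was -1.11 with DMSO and -0.94 with iBET (interval -0.08 to 0.41). Differences between the interactions of these relatives were not tested.

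Irg1 and Jag1 were among the genes followed whatever their values, and Il1rn was named as a called list member. Irg1 (Acod1), the enzyme that makes itaconate, had 29.6, 11.3, 15, 14.4 and 11.2 CPM with DMSO Ova, 226, 193, 241, 146 and 141 CPM with DMSO IC, 3.47, 3.9, 4.43, 1.98 and 3.98 CPM with iBET Ova and 53.4, 34.6, 49.2, 47.9 and 25 CPM with iBET IC. It rose in all mice in both settings, and the iBET libraries were below the DMSO libraries under each stimulus (log2 -2.17 with Ova). The response of Irg1 was 3.57 with DMSO and 3.55 with iBET, but its interval of -0.60 to 0.57 was slightly too wide to call it kept. Jag1, a Notch ligand, had 40.7, 30.6, 27.4, 15.6 and 19.3 CPM with DMSO Ova, 63.5, 73.2, 55.9, 42.5 and 36.8 CPM with DMSO IC, 44.7, 47.5, 34.2, 22.9 and 26 CPM with iBET Ova and 56.9, 58, 44.8, 35 and 32.2 CPM with iBET IC. Its rise was smaller with iBET in 5 of 5 mice. The response of Jag1 was 1.05 with DMSO and 0.39 with iBET, an interaction of -0.66 (SE 0.12, adjusted p = 0.0106), and it was lost without mouse B or C (-0.77 to -0.59, adjusted p up to 0.101). Il1rn, the receptor antagonist of interleukin-1, had 238, 138, 149, 118 and 162 CPM with DMSO Ova, 327, 326, 328, 229 and 274 CPM with DMSO IC, 113, 87.5, 88.5, 64 and 81.5 CPM with iBET Ova and 115, 116, 104, 91.3 and 87 CPM with iBET IC. It was the called member among 14 tested inflammatory cytokines. The response of Il1rn was 0.90 with DMSO and 0.26 with iBET, an interaction of -0.64 (SE 0.13, adjusted p = 0.0234), and it was lost without B, C, D or E (-0.70 to -0.58, adjusted p up to 0.207).

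Interactions of the classical inflammatory genes were not called and their intervals were wide. Tnf responded with 1.79 with DMSO and 1.12 with iBET (interval of the interaction -1.18 to -0.15, adjusted p = 0.271). Il1b went the other way with 1.35 with DMSO and 2.16 with iBET (0.09 to 1.54, adjusted p = 0.358), as did the neutrophil chemokine Cxcl2 with 1.26 with DMSO and 2.15 with iBET (0.36 to 1.43, adjusted p = 0.124). The difference between Tnf and these genes was not tested. In single mice the interaction ran from -1.44 to 0.09 for Tnf, from -0.27 to 1.85 for Il1b and from 0.22 to 1.8 for Cxcl2. Il6 had 0.33 with DMSO and 0.57 with iBET (-0.27 to 0.73) at a low level. The NF-κB inhibitors Nfkbia (0.57 with DMSO and 0.97 with iBET, interval 0.07 to 0.72) and Nfkbie (0.80 with DMSO and 0.83 with iBET, interval -0.34 to 0.40) rose in both settings, and Nfkbie was kept. Ikbke, a noncanonical IκB kinase, had -0.30 with DMSO and -0.37 with iBET. The migration receptor Ccr7 (0.25 with DMSO and 0.31 with iBET) and the sheddase Adam8 (0.44 with DMSO and 0.71 with iBET, adjusted p = 0.103) were not called for the interaction.

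Among the receptors for IgG, the activating Fcgr1 had small responses (-0.44 with DMSO and -0.21 with iBET, interval 0.03 to 0.44). The inhibitory Fcgr2b (-0.10 with DMSO and -0.01 with iBET, interval -0.14 to 0.32) and the activating Fcgr3 (0.02 with DMSO and 0.16 with iBET, interval -0.06 to 0.34) were not called in either response. iBET alone lowered all 3 with Ova, by log2 -2.09, -1.35 and -1.24. Of 20 tested genes of Fcγ receptor signalling 5 rose and 7 fell with DMSO, and 6 rose and 4 fell with iBET. Over all genes 18.3% rose and 19.8% fell with DMSO, and 14.2% rose and 14.7% fell with iBET. The Fcγ receptor list included Syk (0.35 with DMSO and 0.40 with iBET), Card9 (-0.72 with DMSO and -0.50 with iBET) and Btk (-0.35 with DMSO and -0.37 with iBET). Only the adaptor Blnk was called for the interaction (-0.20 with DMSO and 0.30 with iBET, an interaction of 0.50 (SE 0.09, adjusted p = 0.0144)), and without B, C or D it was lost (adjusted p up to 0.149). Of the BET genes, Brd2 (-0.14 with DMSO and -0.18 with iBET, interval -0.23 to 0.15) and Brd3 (-0.18 with DMSO and -0.13 with iBET, interval -0.10 to 0.21) had small responses in both settings. The P-TEFb inhibitor Hexim1 (-0.22 with DMSO and -0.14 with iBET, interval -0.12 to 0.28) did too, although iBET alone raised it by 2.57 on the log2 scale.

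Gene lists were compared by counts and medians, beside the medians of all tested genes of -0.02 with DMSO and -0.01 with iBET and an interaction of -0.000698. Of all 12465 tested genes 18.3% rose and 19.8% fell with DMSO, 14.2% rose and 14.7% fell with iBET, and 6261 had an interaction below 0. The 53 lists held 955 tested genes, of which 19 were called for the interaction, 1.99% against 0.818% of all genes. The lists were chosen with earlier results of these data known, so this difference is no test of enrichment. No list had more than 2 called members. Scaling by library size alone lowered each list's median response by 0.1 to 0.11 in both settings and moved the median interactions by at most 0.0097. Chemokine ligands had the highest median response with DMSO of these lists, with 15 of 18 rising with DMSO and 14 with iBET and 0 called for the interaction by edgeR or DESeq2 (unadjusted p under 0.05 in 5 and 4). Their median fell from 0.89 to 0.51 between the settings while the median of their own interactions was 0.01, since members differed in direction and had wide intervals. Cxcl1 had 1.36 with DMSO and 2.63 with iBET and Cxcl3 2.03 with DMSO and 1.52 with iBET, Cxcl10 had 1.71 with DMSO and 0.99 with iBET, Ccl2 had 1.41 with DMSO and 0.81 with iBET and Ccl4 had 1.65 with DMSO and 1.66 with iBET. None of these 5 interactions passed (adjusted p of 0.434, 0.641, 0.613, 0.415 and 0.995). Inflammatory cytokines had medians of 0.40 and 0.50, with 8 and 7 of 14 rising, and Inhba, a subunit of activin A, had the largest response of the list (2.69 with DMSO and 2.41 with iBET).

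Antioxidant genes driven by NRF2 rose in both settings, 19 of 23 with DMSO and 19 with iBET, with medians of 0.48 and 0.35. Hmox1, which degrades haem, had 2.33 with DMSO and 2.00 with iBET, the glutathione synthesis subunit Gclm had 1.10 with DMSO and 0.65 with iBET and the cystine transporter Slc7a11 had 1.45 with DMSO and 1.91 with iBET. Txnrd1, thioredoxin reductase, was the called member, with 221, 159.8, 178, 159.8 and 179.8 CPM with DMSO Ova, 523, 432, 494, 420.4 and 447 CPM with DMSO IC, 357, 329, 355, 301 and 355 CPM with iBET Ova and 619.7, 557, 714, 596 and 612 CPM with iBET IC. All 4 groups were separate and the gain with IC was 283 CPM with DMSO and 280 CPM with iBET, from a higher start with iBET. The response of Txnrd1 was 1.37 with DMSO and 0.87 with iBET, an interaction of -0.50 (SE 0.08, adjusted p = 0.00721), lost without B, C or D (adjusted p up to 0.0815). The median interaction of the list was near 0 in mice A and B (0.01 in each) and -0.25, -0.14 and -0.29 in C, D and E.

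Of 33 cytosolic ribosomal proteins 32 rose with DMSO and 32 with iBET, by small amounts with medians of 0.20 and 0.21 (0.09 and 0.11 when scaled by library size alone). Their interactions ran from -0.03 to 0.07, but the median interaction of the list differed between mice, from -0.27 in mouse E to 0.27 in mouse B. Of 32 lysosomal genes 24 and 23 rose, with medians of 0.23 and 0.25 (0.12 and 0.15 by library size), including the proteases Ctsb (0.45 with DMSO and 0.48 with iBET) and Ctsd (0.44 with DMSO and 0.56 with iBET) and the lipase Lipa (0.69 with DMSO and 0.58 with iBET). Tfec, given above, was the called member, and Mitf of the same family had 0.22 with DMSO and -0.11 with iBET (adjusted p = 0.11). Glycolysis had medians of 0.23 and 0.23 (0.12 and 0.13 by library size) with 13 and 12 of 23 rising. Oxidative phosphorylation had 0.18 and 0.16 (0.07 and 0.06 by library size) with 18 and 16 of 28 rising. Targets of HIF-1 rose in 15 and 10 of 22, with P4ha2 at 1.26 with DMSO and 0.44 with iBET and Hilpda at 1.06 with DMSO and 1.87 with iBET, neither called for the interaction. NF-κB subunits and feedback inhibitors rose in 11 and 12 of 22, and 2 were called in opposite directions, Tnip3 (above) and the IKK subunit Ikbkg (0.35 with DMSO and -0.04 with iBET, an interaction of -0.38 (SE 0.07, adjusted p = 0.0106)), which was lost without B, C or D (adjusted p up to 0.0973).

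In 7 of the 52 lists with tested members, the median interaction had the same sign in all mice although hardly any member was called. It was below 0 in 4 lists and above 0 in 3. Members of a list can vary together within a mouse, and how many lists would do so by chance was not tested. These lists are described because of this outcome. Cell proliferation genes fell in 17 of 36 with DMSO and 26 with iBET, with medians of -0.17 and -0.31 (-0.28 and -0.42 by library size), and 32 interactions were below 0. The list's median interaction was -0.11, -0.23, -0.18, -0.16 and -0.13 in mice A to E. The mitotic cyclin Ccnb1 was called (0.04 with DMSO and -0.34 with iBET, an interaction of -0.38 (SE 0.09, adjusted p = 0.046)) but in none of the fits with a mouse left out (adjusted p up to 0.344), and Cdc20 (-0.44 with DMSO and -0.83 with iBET), Kif11 (-0.32 with DMSO and -0.62 with iBET) and Birc5 (-0.29 with DMSO and -0.64 with iBET) were not called. Genes of the ATF4 amino acid response and tRNA synthetases fell in 13 of 35 with DMSO and 22 with iBET, with medians of -0.12 and -0.30 (-0.23 and -0.41 by library size) and 32 interactions below 0. The median interaction of the mice was -0.03, -0.20, -0.18, -0.07 and -0.20. The amino acid transporter chain Slc3a2 was the called member (0.58 with DMSO and 0.15 with iBET, an interaction of -0.43 (SE 0.10, adjusted p = 0.0451)), lost without B, C, D or E (adjusted p up to 0.321). Psph (-0.05 with DMSO and -0.43 with iBET), Chac1 (-0.05 with DMSO and -0.79 with iBET) and the tRNA synthetases Iars (-0.50 with DMSO and -0.53 with iBET) and Mars (-0.48 with DMSO and -0.50 with iBET) were not called.

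Endoplasmic reticulum folding genes rose in 16 of 23 with DMSO and 11 with iBET, with 20 interactions below 0, and medians of 0.21 and 0.15 (0.10 and 0.04 by library size). The chaperone Hspa5 had 0.57 with DMSO and 0.28 with iBET and the secreted folding factor Manf was called (0.69 with DMSO and 0.33 with iBET, an interaction of -0.36 (SE 0.07, adjusted p = 0.024)) but lost with any mouse left out (adjusted p up to 0.17). The median interaction of the mice was -0.19, -0.06, -0.21, -0.13 and -0.12. BCL2 family genes rose in 13 of 21 with DMSO and 6 with iBET, with medians of 0.23 and 0.19. Their median interaction was below 0 in 5 of 5 mice (-0.20 to -0.03), and 0 were called by edgeR or DESeq2 (unadjusted p under 0.05 in 3 and 4). The survival factor Bcl2l1 had 0.90 with DMSO and 0.72 with iBET and the caspase-8 inhibitor Cflar 0.56 with DMSO and 0.20 with iBET. Macrophage markers leaned upwards, with medians of -0.02 and 0.12 and an interaction above 0 in 5 of 5 mice (0.01 to 0.24), and 11 of their 12 interactions were above 0. The complement subunits C1qa (0.07 with DMSO and 0.37 with iBET), C1qb (0.04 with DMSO and 0.41 with iBET) and C1qc (0.04 with DMSO and 0.42 with iBET) were not called for the interaction. The part of macrophage content in the other interactions was not tested. The median interaction was also above 0 in 5 of 5 mice for ligands of the TNF superfamily (0.07 to 0.43, 13 genes) and for chemokine receptors (0.04 to 0.19, 8 genes), whose called members were Tnfsf14 and Ccr2.

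Interferon-inducible GTPases fell in 7 of 15 with DMSO and 6 with iBET, with medians of -0.25 and -0.35. Gbp9 (-0.77 with DMSO and -0.08 with iBET, an interaction of 0.69 (SE 0.15, adjusted p = 0.039)) and Gbp2 (-0.07 with DMSO and 0.28 with iBET, an interaction of 0.36 (SE 0.08, adjusted p = 0.0451)) were called, both lost with any mouse left out (adjusted p up to 0.318 and 0.294). Of 33 genes of the type I interferon response 7 rose and 5 fell with DMSO, and 2 rose and 4 fell with iBET. The shares over all genes were 18.3% and 19.8% with DMSO and 14.2% and 14.7% with iBET. In this list 0 were called for the interaction by edgeR or DESeq2 (unadjusted p under 0.05 in 1 and 2). The median interaction of the type I interferon list ran from -0.44 in mouse C to 0.39 in mouse D. Ifit1 had 1.54 with DMSO and 0.18 with iBET and Rsad2 1.79 with DMSO and 1.67 with iBET, with adjusted p values of 0.504 and 0.97 for the interaction. Genes of MHC class II presentation rose in 4 of 14 with DMSO and 8 with iBET, and 0 were called for the interaction by edgeR or DESeq2 (unadjusted p under 0.05 in 3 in each), with medians of 0.08 and 0.22 (-0.03 and 0.11 when scaled by library size alone). Among them were the structural chains H2-Aa (0.35 with DMSO and 0.35 with iBET) and H2-Ab1 (0.36 with DMSO and 0.35 with iBET) and the peptide exchange subunit H2-DMb1 at -0.08 with DMSO and 0.22 with iBET (adjusted p = 0.205). Called singly in their lists were also the desaturase Scd2 (-0.39 with DMSO and -0.73 with iBET, an interaction of -0.34 (SE 0.06, adjusted p = 0.0144)), the oxidase subunit Ncf1 (-0.37 with DMSO and 0.04 with iBET, an interaction of 0.42 (SE 0.08, adjusted p = 0.0214)) and the inhibitory lectin Clec4a2 (-0.21 with DMSO and 0.18 with iBET, an interaction of 0.39 (SE 0.08, adjusted p = 0.0217)). Scd2 was lost without A, C or D (adjusted p up to 0.169), and Ncf1 and Clec4a2 without A, B, C or D (up to 0.123 and 0.182).

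**Figure D5:**
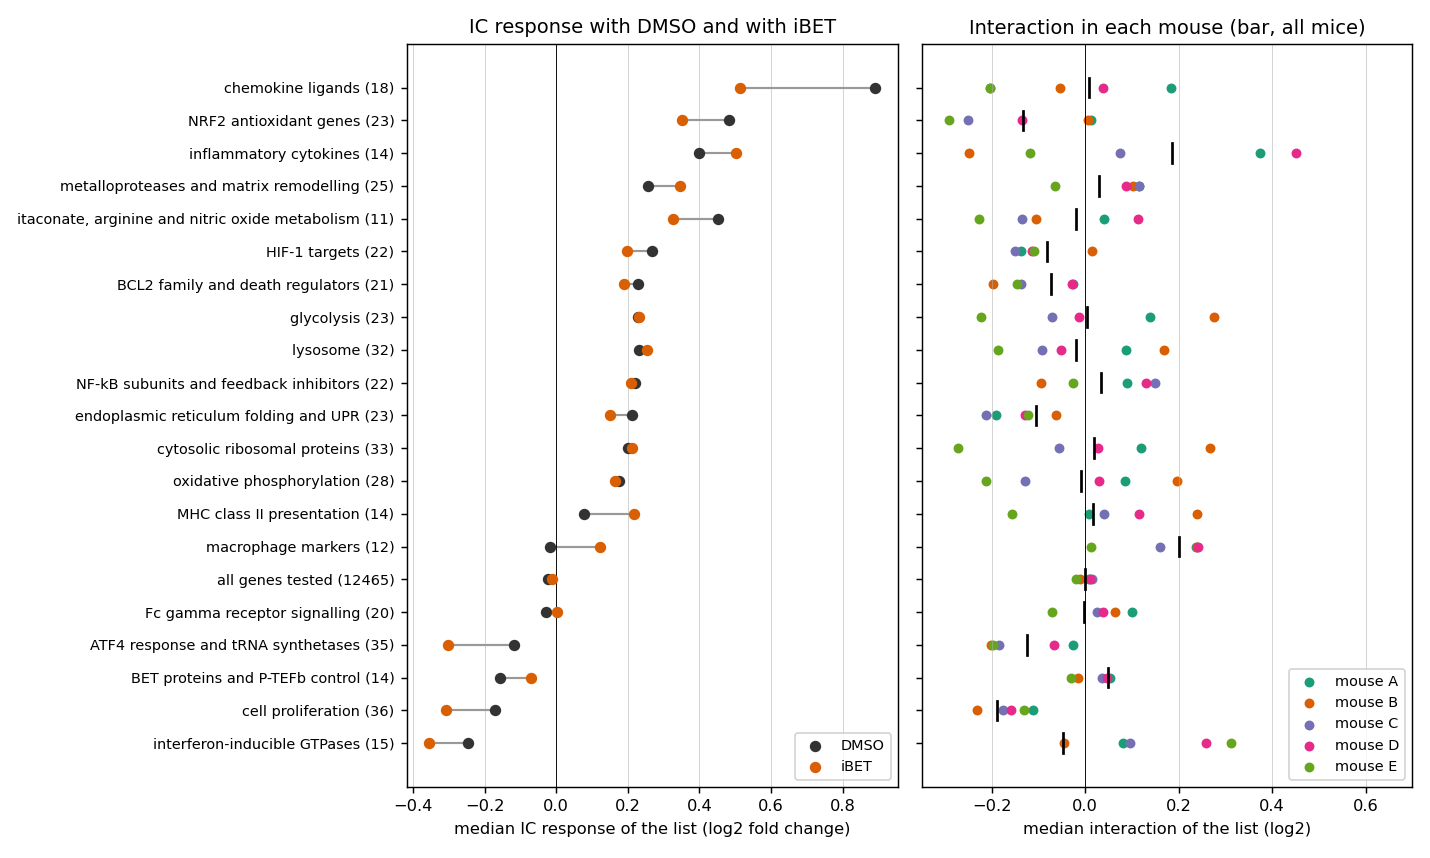
Left, median log2 response to IC of gene lists (number of tested members in brackets) with DMSO and with iBET. Right, median interaction of each list in each mouse as points and over all mice as a bar. Chemokine ligands move from 0.89 to 0.51 on the left while their mice straddle 0 on the right, and the points of cell proliferation, ATF4 response and endoplasmic reticulum folding lie below 0 in all 5 mice.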

How the data were processed

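RNA-seq of murine BMDCs was analysed as 20 libraries, 5 mice in each of 4 groups. As the methods and the submitters' processing notes state, the authors called bases with CASAVA, checked reads with FastQC, trimmed them with Trim Galore, mapped them against mm10 using HISAT2 and assigned them to genes using featureCounts, and no versions are given in the sources used here. The libraries were made with a SMARTer pico-input kit from total RNA. The sources used here name neither the annotation, nor the strand setting, nor what was done with reads matching more than a single gene. The labels describe cells sorted into lysis buffer, the methods lysis in culture. The deposited counts are raw reads per gene. The authors also deposited a table of signal values, each the count over a library's size factor (checked, largest relative spread 1.0004967e-14 within a library). The methods name DESeq2 and removal of batch effects with sva, without naming batches or the design.

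Genes passing filterByExpr were scaled with TMM and fitted in R 4.3.3 by the quasi-likelihood model of edgeR 4.0.16, whose terms were group and mouse, and Benjamini-Hochberg adjustment was made over the 12465 genes tested at a threshold of 0.05. Libraries were assigned to mice A to E by the running numbers in their titles, which pass through the 4 groups in turn. In all 30 pairs of libraries from the same mouse, deviations from the group mean were positively correlated across genes (mean 0.524, lowest 0.307). Replicates of a group differed by more than counting error (lowest chi-square 12.64 per degree of freedom over 40 pairs), with differences in level between mice included. The fit removes these levels, so the 95% intervals rest on how the differences between groups varied from mouse to mouse. CPM values use TMM library sizes, and a median library of 21764663 counts sets their precision. The script was tested on simulated data before use.

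Genes named by class are the 6 with the largest interaction in each of the 4 blunted and enlarged classes, and the 4 of the opposite class, with the same direction in 5 of 5 mice and a mean of at least 100 counts. Also named are among kept genes the 6 that rose and the 4 that fell most, up to 6 called members of each list, and 18 genes whatever their values. A further 2 genes that this rule names are not reported here, though they stay in the fit and in every count. Genes named beyond this rule are examples from lists. The comparison, the named genes and the 53 gene lists were chosen with earlier results of these data known. Alternatives were the fit without the replicate block, DESeq2 1.42.0 with and without it, other scalings, other filters on low counts, surrogate variables (3) from sva 3.50.0, limma 3.58.1 applied to log2 of the deposited signal values, mice A and B or C, D and E alone, each mouse left out, other thresholds and margins, and other choices of the responding genes. Gene positions were found in GENCODE M21 for 125 of 128 symbols.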

Additional observations from a re-analysis of the deposited data

Results flagged for a closer look

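The response to IC differed between cells with DMSO and cells with iBET, by the test of the difference itself (edgeR quasi-likelihood test, Benjamini-Hochberg adjusted), in 102 genes, 41 of which are named here. Interactions are on the log2 scale. Rises with IC were smaller with iBET for Slc40a1 (-1.42), Lrp8 (-1.26), Plk2 (-0.98), Rps6ka2 (-0.89), Ahr (-0.86), Acsl1 (-0.83), Jag1 (-0.66), Il1rn (-0.64), Txnrd1 (-0.50), Slc3a2 (-0.43), Ikbkg (-0.38) and Manf (-0.36). Falls were smaller for Ccr2 (1.22), Abhd15 (0.97), Slamf9 (0.90), Tnfsf14 (0.90), Sirpb1a (0.82), Asb4 (0.76), Gbp9 (0.69) and Ncf1 (0.42). Rises were larger with iBET for Ankrd63 (1.00), Ear3 and Ear12 (0.84 in each, from identical counts), Ear2 (0.79), Ankrd33b (0.76), Tnip3 (0.70) and Gbp2 (0.36). Falls were larger for Klf10 (-1.04), Arrdc4 (-0.88), Sfn (-0.83), Paxbp1 (-0.53), Tfec (-0.47), Slc43a3 (-0.46), Ccnb1 (-0.38) and Scd2 (-0.34). Both responses were called with opposite signs for Clec4b1 (0.90), Hfe (0.80), LOC100038947 (0.72), Sirpb1b (0.66), Blnk (0.50) and Clec4a2 (0.39). In 2 of 67 genes screened, the interaction of a single mouse lay apart from the others. It was 1.19 in mouse B against 0.61 to 0.74 for Hfe, and 0.53 in mouse D against 0.30 to 0.31 for Gbp2. Chance alone flags about 1 in 20 groups of this size.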

How the results depend on the processing

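All 102 called interactions kept their direction under every alternative that measured them. The alternatives reuse the libraries that chose these genes, so this agreement is no independent check. The number of calls moved. It was 5 without the replicate block, 184 with DESeq2 and the replicate block (all 102 among them), 25 with DESeq2 without it, 47 with surrogate variables, 0 in mice A and B only, 65 in mice C, D and E only, 14 to 61 with a mouse left out, 18 at an adjusted p under 0.01 and 9 at an absolute log2 value of at least 1. It stayed between 94 and 108 with the other scalings, filters and the deposited signal values. For the response with DMSO, 2531 genes were called without the replicate block, 2848 with DESeq2 without it, 1265 in mice A and B, 3151 at 0.01 and 214 at a log2 of 1. With iBET these were 1474, 1814, 1458, 2134 and 137, and 2038 in mice C, D and E, with 2392 to 3818 when a mouse was left out. The mean response was called in 3986 genes without the replicate block, 2515 in mice A and B and 128 at a log2 of 1. Kept genes numbered 2968 and 3128 without the block (edgeR and DESeq2), 1467 in mice A and B and 2845 with a narrower margin. The median interaction of the rising genes turned to 0.0378 in mice A and B and was -0.123 in mice C, D and E, and that of the falling genes was 0.104 when chosen on the DMSO response. Subsets of mice hold fewer samples, and the cause was otherwise not tested.

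The interactions of 10 named genes changed sign under an alternative, and were called neither before nor after. Without the replicate block (edgeR, DESeq2) Irg1 was 0.0407 and 0.0336. With surrogate variables Bhlhe41 was 0.0114, Gm1966 -0.0328 and Irg1 0.154, and with the deposited signal values Nfkbie was -0.0189. In mice A and B Bhlhe41 was 0.309, Gm1966 -0.0623, Fcgr2b -0.0628, Irg1 0.19 and Nfkbie -0.395. In mice C, D and E Ppap2b was -0.0731, Brd2 0.000827 and Hexim1 -0.157. With a mouse left out Bhlhe41 ranged from -0.348 to 0.0524, Ppap2b from -0.086 to 0.0992, Lrrc32 from -0.0431 to 0.317, Gm1966 from -0.0596 to 0.1, Irg1 from -0.342 to 0.24, Nfkbie from -0.0802 to 0.12, Brd2 from -0.0683 to 0.00024, Brd3 from -0.00754 to 0.0853 and Hexim1 from -0.0645 to 0.154. With 5 mice, the median distance from an interaction to either end of its 95% interval was 0.24 over all genes and 0.60 over those that changed 2-fold or more. Differences below these sizes were mostly not detectable at this depth and number of mice. Larger ones could be missed too, since a call also had to pass the adjustment over all genes tested. The called interaction nearest to no change was -0.29 (Ddhd1).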
